A study of Mus musculus with 4 samples.

Results

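10 genes that mark the primed epiblast were followed in embryoid bodies of mouse embryonic stem cells: Fgf5, Otx2, Pou3f1, Zic2, Zic5, Sall2, Sox3, Sox11, Sfrp2 and Lef1. They are a fixed list of 10 gene symbols, all of them on the array, among 14386 genes with a named spot. The list names symbols and holds no threshold on a measured value. The cells were of CGR8, a line of mouse embryonic stem cells, and the embryoid bodies, the aggregates such cells form on differentiating, were made in hanging drops. RNA of day 3 embryoid bodies was co-hybridised with RNA of undifferentiated day 0 cells on 2 spotted arrays with 2 channels, and RNA of day 10 embryoid bodies with day 0 RNA on another 2. No treatment, genotype or sort is given in the labels, and day 0 RNA is the partner on all 4 arrays. The second array of each day is labelled a technical replicate, so each day counts as 1 replicate, the SD covers technical error alone, and no test of significance was possible. With so few arrays the precision of all values is limited. One preparation of day 0 RNA for all arrays was assumed where the days are compared.

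In the mouse embryo the naive epiblast of the blastocyst turns into the primed epiblast after implantation, before gastrulation begins. Cells on this path lose naive factors such as Nanog and Zfp42 and gain genes such as Fgf5 and Otx2, and embryonic stem cells pass through a like state when they leave self-renewal. Several of the 10 genes have a further role: Sox3, Sox11, Zic2 and Zic5 are also active in the neural plate, and Lef1 in mesoderm that responds to Wnt.

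The values are log2 ratios of the channels of a spot, less the median of the array. The numerator channel, not given in the sources used here, is unknown: "positive" and "negative" are the deposited sign and do not say which day was higher. A ratio holds no absolute level, so whether a gene or a cell type was present could not be read from it. In whole embryoid bodies, fewer cells of a type and less RNA per cell cannot be told apart. A gene was called beyond 2-fold when its log2 ratio reached 1 or more, or -1 or less, on both arrays of a day.

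No member was beyond 2-fold on both arrays at either day: 0 of the 8 that had a value on both day 3 arrays, and 0 of 10 at day 10. By the same rule 2.80% of all 13707 measured genes were called at day 3 and 3.54% of 13199 at day 10. The members farthest from 0 at day 3 were Sox11, a transcription factor of the SoxC group, at 1.04 ± 0.27 (mean ± SD of 2 technical arrays, as below), and Zic2, a zinc finger factor, at -1.09 ± 0.40. Each was beyond the limit on 1 of the 2 arrays. Fgf5, the most used marker of the primed epiblast, had gene means within 0.29 of the array median on all 4 arrays.

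The 10 genes were read by 24 spots, 2 for each gene except Sox11, which had 6 spots from 3 accessions. Of the 96 possible readings 13 had no value, or 13.5% against 13.7% over all spots and arrays. Otx2 and Pou3f1 had no value on replicate 1 of day 3 and so no day 3 mean. The plot of single readings shows how far the spots of each gene agreed.

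**Figure D1:**
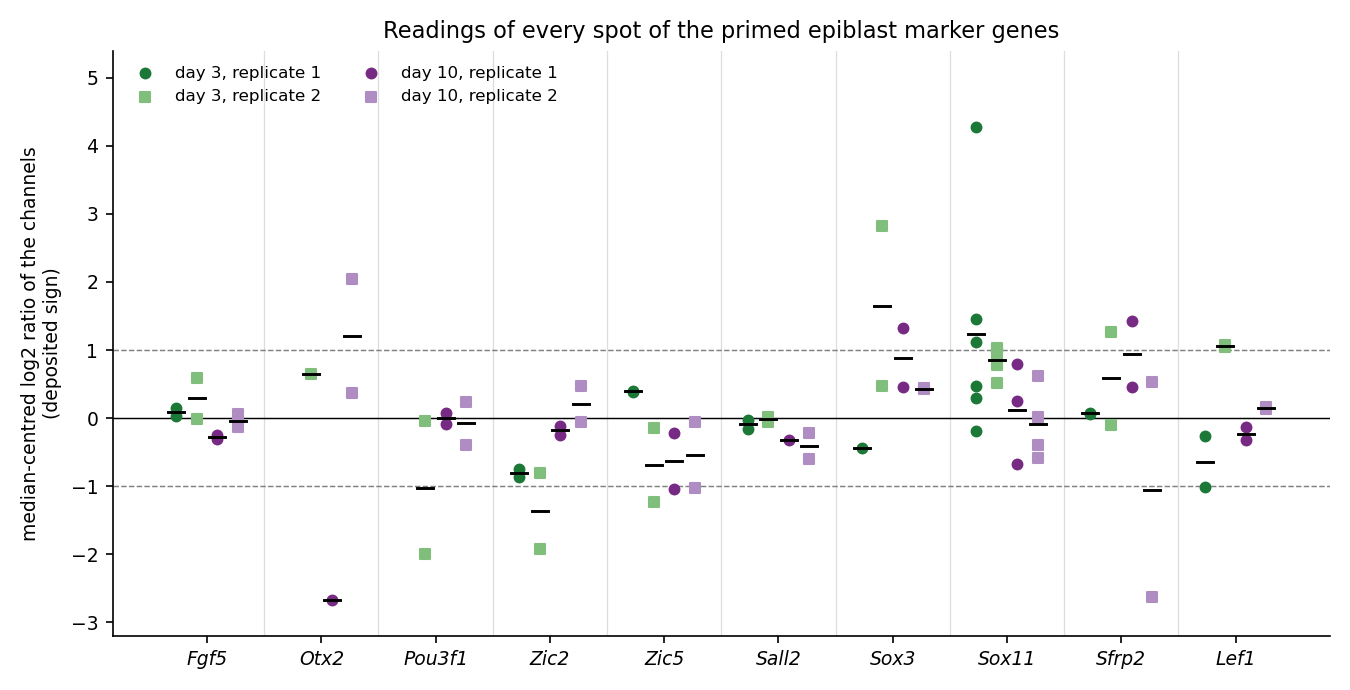
Median-centred log2 ratio (vertical axis, deposited sign) of every spot of the 10 genes (horizontal axis) on the 4 arrays; points are spots, short black bars the gene's mean on that array, dashed lines 2-fold. The readings of Fgf5 and Sall2 all lie inside 2-fold, the farthest from 0 being 0.58 for Fgf5 at day 3 and -0.61 for Sall2 at day 10. At day 3, 11 of the 12 readings of Sox11 lie above 0 and all 4 of Zic2 below it.

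The 3 promoters shown are those of Fgf5, the reference marker, of Sox11, the member farthest on the positive side at day 3, and of Sfrp2, whose window held motifs of a pair of member factors. They are the 250 bases before the transcription start from RefSeq (GRCm38.p6), written 5′ to 3′ on the gene's strand, with motif matches in capitals. The Fgf5 window is chr5:98253934-98254183 (+ strand), that of Sox11 chr12:27342719-27342968 (- strand) and that of Sfrp2 chr3:83766071-83766320 (+ strand).
Fgf5: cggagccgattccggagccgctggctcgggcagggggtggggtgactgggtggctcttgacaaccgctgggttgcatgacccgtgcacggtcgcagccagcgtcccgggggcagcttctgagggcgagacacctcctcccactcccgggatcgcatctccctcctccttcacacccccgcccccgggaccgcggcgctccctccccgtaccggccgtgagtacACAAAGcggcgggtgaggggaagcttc
Sox11: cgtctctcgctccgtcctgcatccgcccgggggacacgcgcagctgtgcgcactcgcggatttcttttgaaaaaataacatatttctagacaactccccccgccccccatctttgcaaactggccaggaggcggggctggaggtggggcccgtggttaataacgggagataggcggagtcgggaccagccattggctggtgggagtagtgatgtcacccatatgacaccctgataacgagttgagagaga
Sfrp2: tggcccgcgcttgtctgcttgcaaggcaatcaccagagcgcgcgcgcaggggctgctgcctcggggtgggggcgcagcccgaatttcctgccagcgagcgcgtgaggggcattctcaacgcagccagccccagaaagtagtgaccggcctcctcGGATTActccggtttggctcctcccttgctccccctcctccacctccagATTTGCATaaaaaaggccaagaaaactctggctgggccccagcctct
The motifs searched on both strands were TAATCC, bound by Otx2, the octamer ATGCAAAT of POU factors such as Pou3f1, ACAAAG and ACAATG, bound by Sox factors, and CTTTGAA and CTTTGAT, bound by Lef1. The Sox and Lef1 motifs share most of their letters on opposite strands. The table held 14 windows for 7 of the members and none for Pou3f1, Zic2 and Sox3. Sfrp2 had TAATCC, found in 6.25% of all 32851 windows, at 96 bases before the start on the opposite strand, and the octamer, found in 1.60%, at 47 bases. Fgf5 had ACAAAG, found in 16.5% of windows, at 27 bases before the start. No motif searched was in the Sox11 window. Of the 14 member windows, 2 held TAATCC, 1 the octamer, 2 ACAAAG, 1 ACAATG and 0 either Lef1 motif. A match here is a string of letters, and the arrays measured neither binding nor promoter activity.

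Among the secreted factors, Fgf5, a ligand of the fibroblast growth factor family, gave some of the most repeatable values. Its gene means were 0.09 and 0.29 at day 3, and -0.28 and -0.04 at day 10. The days did not overlap, but all of these values lay well inside 2-fold. The day 3 mean was 0.19 ± 0.14 and the day 10 mean -0.16 ± 0.17. With only the spot that differed least between arrays the day 3 mean was 0.07 ± 0.11. With the brightness trend removed the day 10 mean was -0.05 ± 0.13. The single Fgf5 readings ran from -0.01 to 0.58 at day 3 and from -0.30 to 0.05 at day 10, so the readings of the days did overlap.

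Sfrp2 encodes a secreted frizzled-related protein, which binds Wnt ligands outside the cell. Its means were 0.07 and 0.58 at day 3, both positive, and 0.95 and -1.05 at day 10, on opposite sides. At day 3, 1 spot read 0.08 on replicate 1 and 1.26 on replicate 2, and the other 0.07 and -0.10. With only the spot that differed least between arrays the day 3 mean turned to -0.02. The day 10 split came from 1 spot, which read 1.43 on replicate 1 and -2.63 on replicate 2, while its neighbour read 0.46 and 0.53. Sfrp2 therefore had a day 3 mean of 0.33 ± 0.36, smaller than its spread, and a day 10 mean of -0.05 ± 1.41 that has no settled side.

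Otx2, a homeobox factor that moves enhancer binding from the naive to the primed state, was the least well measured member. It gave 1 reading at day 3, of 0.64 on replicate 2. At day 10 it read -2.67 on replicate 1, and 0.36 and 2.04 on replicate 2. The arrays of day 10 thus disagreed in sign, with gene means of -2.67 and 1.20, and the mean of -0.73 ± 2.74 carries no direction. The related Otx1 had smaller SDs, at 0.86 ± 0.39 at day 3 and 0.98 ± 0.20 at day 10. On spots read on all 4 arrays the Otx1 SDs were larger, at 1.17 ± 0.83 at day 3 and 0.97 ± 0.66 at day 10.

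Pou3f1, also called Oct6, is a POU factor of the epiblast and of neural cells. On the single day 3 array with values its spots read -2.00 and -0.05. At day 10 its means were -0.01 and -0.08, among the closest to 0 of the 10 genes, with a day 10 mean of -0.04 ± 0.05. The day 10 means join spots on opposite sides on each array, at 0.08 and -0.09 on replicate 1 and 0.24 and -0.39 on replicate 2. With only the spot that differed least between arrays the day 10 mean turned to 0.16. The relative Pou3f2 was at -0.06 ± 0.20 at day 3 and 0.22 ± 0.22 at day 10, where it rose to 0.75 ± 0.45 with spot medians and 0.98 ± 0.12 with the spot that differed least.

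Sox11 showed the clearest positive ratio at day 3. Its 6 spots read 4.27, 1.45, 1.12, 0.46, 0.29 and -0.19 on replicate 1. On replicate 2 the readings lay between 0.52 and 1.03. Every reading of replicate 2 was positive, and on replicate 1 all but 1 were. Of the 37 genes with 6 spots and all 12 readings at day 3, 5.41%, or 2 genes, had at least 11 above 0. Sox11 is itself 1 of these 2. The count was looked at after the Sox11 values were seen, so it does not measure how rare they are.

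The Sox11 gene means were 1.23 and 0.85 at day 3, so replicate 2 fell short of the limit, and the mean of 1.04 ± 0.27 is a linear fold of 2.06. One spot, at 4.27 and 0.52, stood apart, and without it the day 3 mean was 0.77 ± 0.21, no longer beyond 2-fold. By accession the day 3 means were 0.86 ± 0.10 for NM_009234, 0.52 ± 0.66 for AK012306 and 1.76 ± 1.56 for AK018080, all positive. At day 10 the gene means were 0.12 and -0.08, with 7 of 12 readings present, 4 of them positive and 3 negative. The day 3 and day 10 arrays of Sox11 did not overlap. The difference, day 10 minus day 3, was -1.03 ± 0.31, with all 4 array differences negative. It rests on the 7 day 10 readings, and it shrank to -0.62 on spots read on all 4 arrays and -0.76 without the odd spot. With the spot that differed least between the arrays of each day it was -0.53. That spot was not the same at day 3 and day 10, so this value compares different spots.

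Sox3, a SoxB1 factor of the epiblast and neural plate, was positive on both day 10 arrays, at 0.89 and 0.43. All 4 of its day 10 readings were positive, from 0.43 to 1.32, and the mean was 0.66 ± 0.32. At day 3 it read -0.44 from a single spot on replicate 1 and 0.47 and 2.83 on replicate 2. Its day 3 mean of 0.61 ± 1.47 is therefore much smaller than its error. Other Sox genes on the array gave 0.13 ± 0.50 for Sox1, -0.38 ± 0.31 for Sox2 and 0.30 ± 0.26 for Sox4 at day 3.

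Zic2 and Zic5 are zinc finger factors that stand next to each other in the genome, with no protein-coding gene between them in the RefSeq table. Zic2 lay on the negative side in all 4 day 3 readings, which were -0.86 and -0.75 on replicate 1 and -1.93 and -0.81 on replicate 2. Among 2-spot genes with 4 readings at day 3, 21.3% had all 4 below 0. The Zic2 array means were -0.81 and -1.37, a linear fold of 2.13 on average. At day 10 they were -0.18 and 0.21, around 0, and did not overlap with day 3. The difference, day 10 minus day 3, was 1.10 ± 0.48, opposite in sign to that of Sox11.

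Zic5 had no settled side at day 3. At day 3 its means were 0.39 and -0.69, on opposite sides, and at day 10 -0.63 and -0.54, both negative. The day 10 value of -0.58 ± 0.06 came from 2 spots that disagreed: 1 read -1.04 and -1.02, just beyond 2-fold on both arrays, and the other -0.22 and -0.06. With only the spot that differed least between arrays, Zic5 was the 1 member called at day 10. Day 3 means of Zic2 and Zic5 differed by 0.94, against a combined SD of 0.86.

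Sall2, a zinc finger factor of the Spalt family, had ratios near 0 at day 3, with means of -0.09 and -0.02. At day 10 they were -0.32 and -0.41. The day 10 mean of -0.36 ± 0.07 was well inside 2-fold. Replicate 1 of day 10 had a value for 1 spot only, -0.32, and that spot read -0.61 on replicate 2. The other spot read -0.21 there, so the small SD compares unlike sets of spots. Its relative Sall4, a factor of the pluripotency network, was beyond 2-fold at day 3 at -1.17 ± 0.07 and at 0.12 ± 0.30 at day 10. The day 3 call of Sall4 was lost with the spot that differed least between arrays, at -1.08 ± 0.49.

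Lef1, the transcription factor through which beta-catenin acts on Wnt target genes, gave opposite signs on the day 3 arrays. Its spots read -1.01 and -0.27 on replicate 1 and 1.07 and 1.04 on replicate 2. Both spots of an array agreed in sign, so the split lay between the arrays. The day 3 mean was 0.21 ± 1.20. At day 10 the means were -0.23 and 0.15, around 0, and Tcf7l1, a relative of Lef1, stood at 0.44 ± 0.05 at day 3, or 0.77 ± 0.46 with the spot that differed least between arrays.

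**Figure D2:**
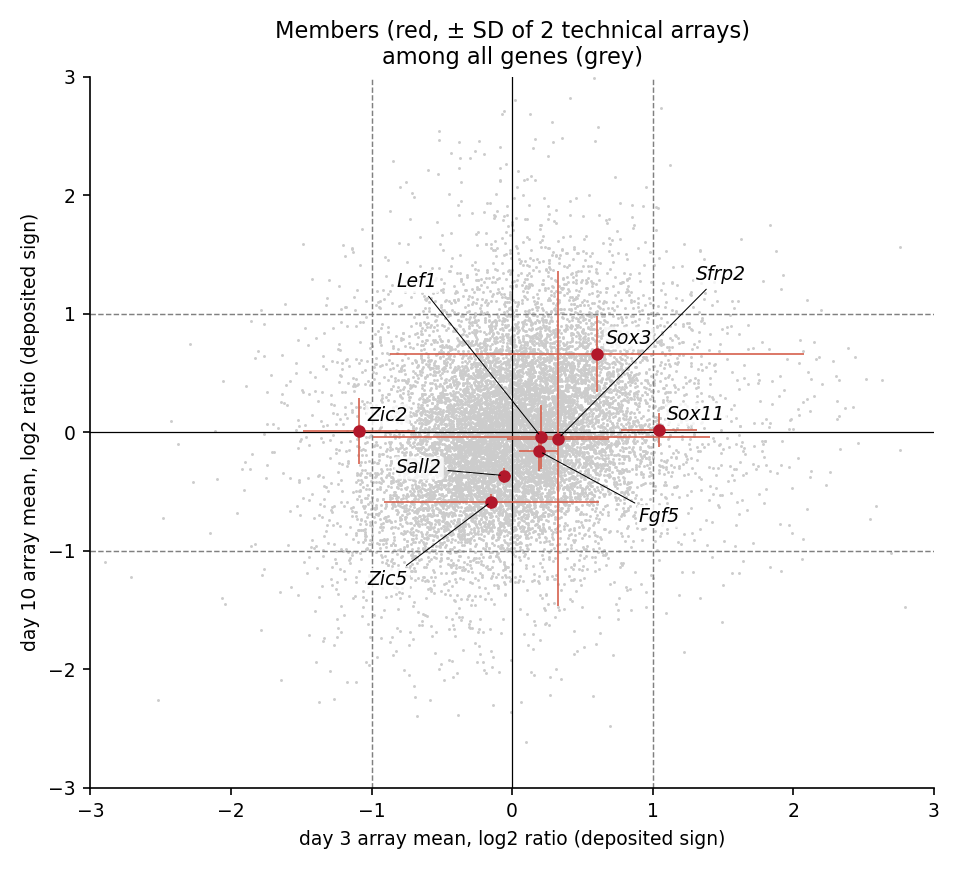
Mean log2 ratio at day 3 (horizontal) and day 10 (vertical) of the 8 members with both values (red, bars are the SD of 2 technical arrays) among all genes (grey, 12654 genes in all, of which 14 beyond 3 on an axis are not drawn); dashed lines are 2-fold. Sox11 (1.04 at day 3) and Zic2 (-1.09) lie at opposite edges of the group at day 3 and both close to 0 at day 10.

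Seen as a group the 10 genes did not share a side. At day 3, 3 of 8 were positive on both arrays (Fgf5, Sox11 and Sfrp2), 2 negative on both (Zic2 and Sall2) and 3 split. Over all genes 32.9% were positive on both arrays and 31.8% negative on both, so the members' counts are near the background. At day 10, 1 of 10 was positive on both arrays (Sox3) and 4 negative (Fgf5, Pou3f1, Zic5 and Sall2), against 30.0% and 30.8% of all genes. With only the spot that differed least between arrays, 2 of 8 members were on 1 side on both arrays at day 3, against 72.6% of all genes, and 8 of 10 at day 10, against 69.2%.

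The median over the members was 0.20 at day 3, with array medians of -0.01 and 0.43, and -0.05 at day 10. The medians over all genes were 0.01 and -0.01. The day 3 median is smaller than the SD of 0.31 between its array medians. The arrays differed most for Lef1 and Sox3, which stood at 1.06 and 1.65 on replicate 2, against -0.64 and -0.44 on replicate 1. In the order of the day 3 means, from Sox11 through Sox3, Sfrp2, Lef1, Fgf5, Sall2 and Zic5 to Zic2, 5 of the 7 gaps between neighbours were within their combined SD. The others were those from Fgf5 to Sall2 and from Zic5 to Zic2.

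For day 10 against day 3, with day 0 RNA taken as common, 0 of 8 members had all 4 array differences beyond 2-fold, against 3.54% of 12654 genes. Zic2 was positive in all 4 differences and Fgf5, Sall2 and Sox11 negative in all 4. Over all genes 20.7% were positive in all 4 and 22.7% negative. The Fgf5 difference was -0.35 ± 0.22 and that of Sall2 -0.31 ± 0.08. For Sall2 this SD also rests on 1 spot on replicate 1 of day 10. The median difference over the members was -0.33, close to the 0.33 SD from its array medians.

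The members were read beside other genes of the same transition. Of 20 further genes of the primed and formative epiblast, 17 were measured at day 3. Dnmt3b, which sets new DNA methylation marks, was the 1 beyond 2-fold, at 1.32 ± 0.36, and none called was on the negative side. Its partner Dnmt3a was at 1.34 ± 1.16, with 2.16 and 0.52 on its arrays. Of the 17, 8 were positive on both day 3 arrays and 5 negative, against 32.9% and 31.8% of all genes. The 2-fold rule called 2.80% of all genes at day 3 and 3.54% at day 10. The list's median was 0.35. At day 10 none of 18 was beyond 2-fold and the median was -0.19, or 0.03 without replicate 1 of day 10.

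Of 22 genes of the naive list measured at day 3, 12 were negative on both arrays, against 31.8% of all genes, and 3 positive, with a median of -0.31. The list also holds Pou5f1 and Sox2, core pluripotency factors that are not particular to the naive state, and both are among the 12. Dppa5a at -2.71 ± 0.04 and Zfp296 at -2.15 ± 0.67 were the 2 beyond 2-fold, against 2.80% of all genes called. Nanog, at -0.48 ± 0.37, Zfp42, at -0.78 ± 0.01, and Pou5f1, at -0.89 ± 0.15, the gene of Oct4, were negative inside the limit. The Pou5f1 value was -0.43 ± 0.50 on spots read on all 4 arrays and with the spot that differed least. At day 10, 9 of 21 were negative on both arrays, against 30.8% of all genes, and 3 positive, with a median of -0.37 that turned to 0.15 without replicate 2. Over all genes 32.9% were positive on both day 3 arrays and 30.0% on both day 10 arrays. Sox11, Fgf5 and Sfrp2 had the sign opposite to Dppa5a on both day 3 arrays, while Zic2 and Sall2 had its sign. Dppa5a is 1 gene of a list with both signs, and these member counts are near the background of all genes. Sall2 was at -0.05, and Sfrp2 turned to -0.02 with the spot that differed least.

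**Figure D3:**
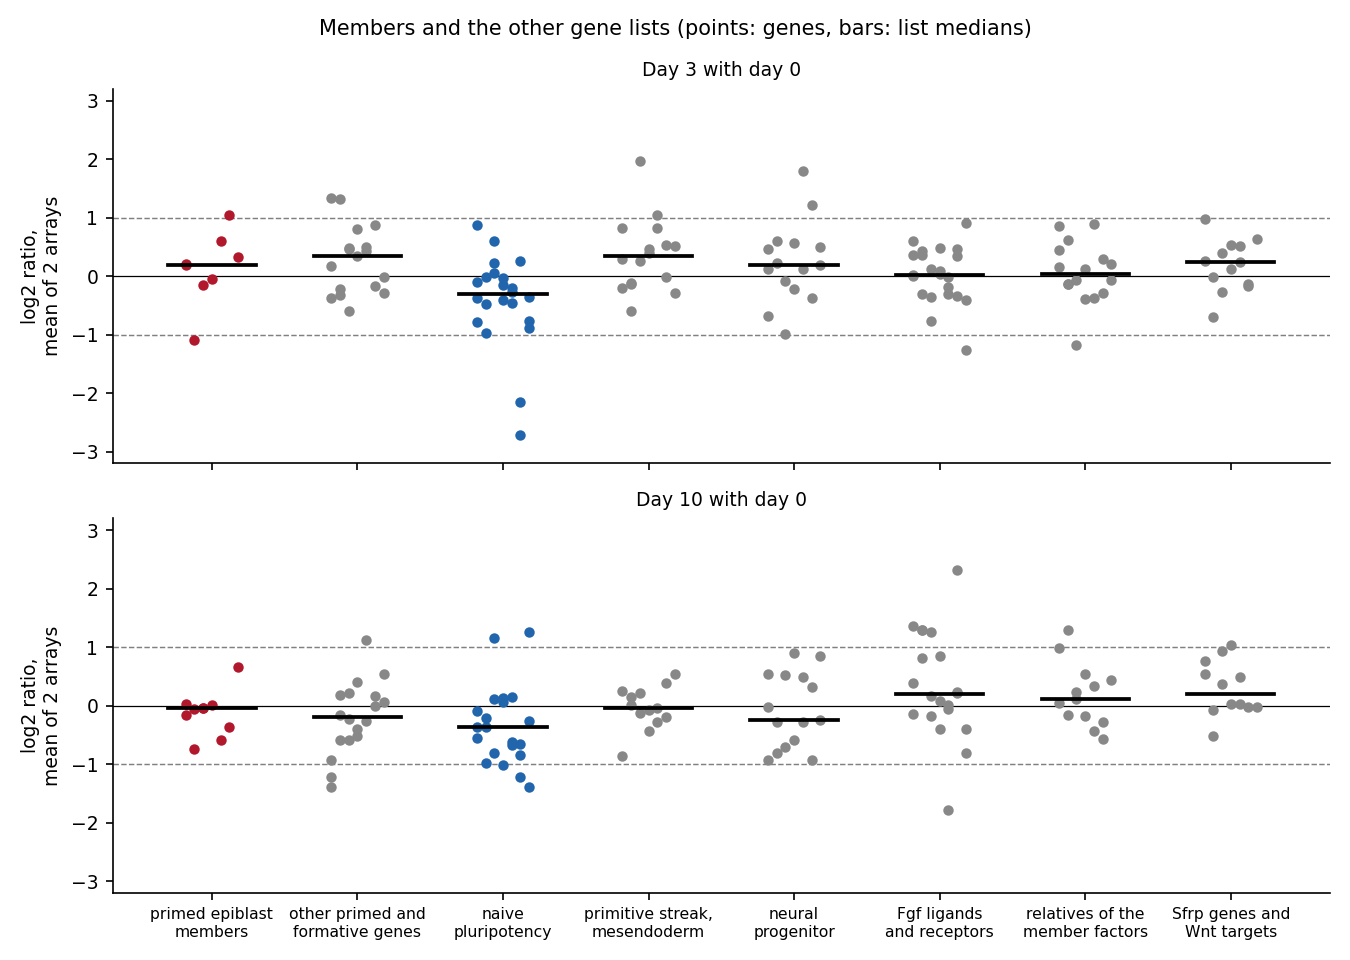
Mean log2 ratio of 2 arrays (vertical axis, deposited sign) for each gene of the members (red), the naive list (blue) and 6 other lists (grey) at day 3 (top) and day 10 (bottom); black bars are list medians and dashed lines 2-fold. At day 3 the members' median is 0.20 and the naive median -0.31, and points of all lists overlap.

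Other lists touch the further roles of the members. Over all genes, 32.9% were positive and 31.8% negative on both day 3 arrays. The 2-fold rule called 2.80% at day 3 and 3.54% at day 10. Of 16 primitive streak and mesendoderm genes measured at day 3, 7 were positive on both arrays and 4 negative, with a median of 0.34, and Mesp1, a factor of early mesoderm, was beyond 2-fold at 1.97 ± 0.10. Of 15 neural progenitor genes, 6 were positive and 4 negative, with a median of 0.20, and Neurog2, a proneural factor, was beyond 2-fold at 1.22 ± 0.19. On spots read on all 4 arrays Neurog2 was no longer called, at 0.97 ± 0.94, and the neural median at day 3 turned to -0.08. At day 10 the medians of these lists were -0.04 and -0.25, and none of their genes was called. Both turned positive without replicate 1 of day 10, to 0.20 and 0.29.

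The family of Fgf5 was mixed. Of 22 Fgf ligands and receptors measured at day 3, 9 were positive on both arrays and 7 negative, with a median of 0.03. Over all genes the shares were 32.9% and 31.8%, and 2.80% were called at day 3 and 3.54% at day 10. The receptor gene Fgfr3 was called on the negative side at day 3, at -1.27 ± 0.38, and again at day 10, at -1.79 ± 0.16. Its day 3 call sat at the limit, with -1.003 on 1 array, and was lost at -1.23 ± 0.44 on spots read on all 4 arrays, on spots read on both arrays of the day and with the spot that differed least, and at -1.28 ± 0.44 with the brightness trend removed. The ligand gene Fgf18 was at -0.30 ± 0.16 at day 3 and beyond 2-fold at day 10, at 2.31 ± 0.89. The median of the 20 measured at day 10 was 0.19, or -0.11 without replicate 2.

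Of 16 relatives of the member transcription factors measured at day 3, 7 were positive on both arrays and 6 negative. Their median was 0.03, or -0.07 on spots read on all 4 arrays. Over all genes 32.9% were positive and 31.8% negative on both day 3 arrays, and 2.80% were called. The 1 gene called was Sall4, whose call depends on the spot as given above. At day 10 none of 13 was called and the median was 0.12, or -0.10 without replicate 2 of day 10. Among 13 Sfrp relatives and Wnt target genes measured at day 3, 6 were positive and 3 negative, none was called, and the median was 0.25. At day 10 the figures for 12 genes were 5 positive, 1 negative and a median of 0.20, against 30.0% and 30.8% of all genes. Sfrp1 was at 0.98 ± 0.73 at day 3, or 0.35 with spot medians, 0.20 with the spot that differed least and 0.21 on spots read on all 4 arrays. At day 10 it was at 0.54 ± 0.37, or 0.25 with spot medians and 0.19 on spots read on all 4 arrays.

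Technical error differed between the members. Brightness, taken from the smallest whole numbers whose ratio gives each deposited value, put Fgf5 and Sall2 at percentiles 93.9 and 92.8 of all genes. Otx2 was at 0.570, Sox3 at 7.81, Sfrp2 at 14.9 and Sox11 at 19.0, and Zic5, Zic2, Lef1 and Pou3f1 lay between 49.9 and 61.2. At day 3 the SD of a single array was 0.29 in the brightest 25% of genes and 0.84 in the dimmest 25%. At day 10 the same SDs were 0.41 and 0.94. Among the dim members the SD was 2.74 for Otx2 at day 10, 1.47 at day 3 and 0.32 at day 10 for Sox3, 0.36 and 1.41 for Sfrp2, and 0.27 at day 3 for Sox11. Lef1, of middle brightness, had a day 3 SD of 1.20, and Fgf5, bright by this measure, SDs of 0.14 and 0.17. The part of brightness in these values was not tested.

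Markers of other cell types were read by the same rule, which called 2.80% of all genes at day 3 and 3.54% at day 10. At day 3, Apob of 12 measured endoderm markers, Tfap2c of 7 trophoblast markers and, on the negative side, Tnnc1 of 8 cardiac markers were called, and none of 8 leukocyte, 9 fibroblast or 7 erythroid markers. The calls of Apob and Tnnc1 were lost with the brightness trend removed, and that of Tnnc1 also on spots read on all 4 arrays and with the spot that differed least. The list medians at day 3 were 0.00 for endoderm, 0.40 for trophoblast, 0.04 for leukocytes, 0.10 for fibroblasts, -0.31 for cardiac muscle and -0.08 for erythroid genes. Those of endoderm, leukocytes and erythroid genes changed sign with the spot that differed least, to 0.28, -0.09 and 0.03. At day 10, Psg17 of 7 trophoblast markers and Epor and Alas2 of 7 erythroid markers were called, Alas2 not with the brightness trend removed. No spot of Alas2 had a value on both day 10 arrays, so its call joins different spots. Day 10 medians were 0.45, 0.14, 0.37, -0.18, -0.36 and 0.94 in the same order. The erythroid median turned to -0.13 on spots read on all 4 arrays, the trophoblast median to -0.05 without replicate 2, and the fibroblast median to 0.18 with the spot that differed least and 0.10 without replicate 1. Their part in the members' values was not tested.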

How the data were processed

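The 4 CGR8 arrays with 2 channels, 2 for each of day 3 and day 10, were read from the deposited value table of the series, which the authors gave as 1 log2 ratio per spot. The log base was inferred from the values. Scanner, dyes, background and dye correction were not given in the sources used here. Uncorrected dye bias can be part of any ratio. Between 37471 and 41386 of 46128 spots had a value per array. Spots were named through the platform annotation (32544 spots with 1 symbol, 588 with several and 12996 without a row), and 480 control spots were left out. Each array was centred on its median and a gene's spots were averaged.

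Members and lists were chosen with earlier results of these data known. Named genes were the 10 members, the 2 called genes farthest from 0 of each context list at each day, and a fixed set of relatives or partners, reported where a value was used. Otherwise-named list genes are the called cell type markers. The SD of day 10 minus day 3 combines both array pairs. Alternatives were no centring, a common spread, limits of 1.5-fold, 4-fold and on the mean alone, spot medians, the spot that differed least between arrays, complete spots, removal of the brightness trend in 50 bins, and each array left out. The spot that differed least was chosen separately for each day. Spots complete within a day and the removal of 1 Sox11 spot were added after the data were seen. Brightness is a lower bound if channels were whole numbers, and values that are no ratio of whole numbers up to 10000 count as bright. Between 59.3% and 62.0% of an array's values were such ratios. The steps were tested on simulated data. Python 3.11.15, numpy 2.4.6, pandas 2.3.3 and matplotlib 3.10.9 were used.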

Additional observations from a re-analysis of the deposited data

Results flagged for a closer look

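Fgf5 was on the positive side on both day 3 arrays (mean 0.19) and on the negative side on both day 10 arrays (mean -0.16), and the difference between the days was not tested. These sides were not kept in all alternatives. The day 3 arrays split with the spot that differed least, at 0.07 ± 0.11. The day 10 arrays split with the brightness trend removed, at -0.05 ± 0.13. The Fgf family gene Fgf18 was on opposite sides in the reverse order, negative on both day 3 arrays and positive on both day 10 arrays, with means of -0.30 at day 3 and 2.31 at day 10, and this difference was not tested either. Of all 12654 genes with values on the 4 arrays, 14.0% had both arrays of each day on 1 side and the days on opposite sides.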

How the results depend on the processing

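The count of members beyond 2-fold was 0 at day 3, at day 10 and for day 10 minus day 3, and stayed 0 with no centring, a common spread, a limit of 4-fold, spot medians, spots complete on all 4 arrays or within a day, the brightness trend removed, and without the odd Sox11 spot. With a limit of 1.5-fold it was 2 at day 3 (Sox11 and Zic2) and 2 between days, against 11.7% and 10.3% of all genes. With the limit on the mean alone it was also 2 and 2, against 7.97% and 16.2%. With only the spot that differed least between arrays it was 1 at day 10 (Zic5), against 5.90%. With an array left out, and the call resting on the other, it ran from 1 to 4 at day 3, from 1 to 2 at day 10 and from 0 to 2 between days. On single arrays 12.8% to 20.4% of all genes were called at a day, and 10.0% to 15.4% between days with an array left out. The median over the members ran from -0.01 to 0.43 at day 3, from -0.21 to -0.058 at day 10 and from -0.54 to -0.19 between days when an array was left out. Of 251 values of single members under the alternatives 26 changed sign. No member was called in the main setting, so no sign change could touch a main call. Otx2 at day 10 turned from -0.73 to 1.20 without replicate 1 and was called positive there. The cause of the sign changes was not tested. No paired analysis was possible because the labels give no replicate numbers and each day is 1 RNA pair on technical arrays.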

Other observations

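The smallest whole numbers whose ratio gives a single reading differed widely within the 10 genes. The Otx2 reading of 2.04 on replicate 2 of day 10 is a deposited value whose smallest whole-number ratio is 4 to 1. The reading of -2.67 on replicate 1 is 98 to 631, and the single Sox3 reading of replicate 1 at day 3 is 21 to 29. For Fgf5 no reading gave whole numbers under 19941. These are smallest numbers, and a common factor of the channel values would be lost. They bound the brightness of a spot from below only if the channel values were whole numbers, which was not shown for Fgf5.

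Neighbouring spots of the same accession allow a second view of error within an array. Their median absolute difference over the members was 0.13 on replicate 1 and 0.59 on replicate 2 of day 3, over 9 and 11 pairs, against 0.35 and 0.33 over all named spots. At day 10 they were 0.36 and 0.58 over 8 and 10 pairs, against 0.54 and 0.41 over all. The same spot read on both day 3 arrays differed by a median of 0.67 over 19 member spots, against 0.44 over all named spots. For the day 10 arrays the values were 0.30 over 19 member spots and 0.57 over all.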
